A study of Homo sapiens with 15 samples.

Results

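The SR proteins, the heterogeneous nuclear ribonucleoproteins (hnRNPs), the CLK kinases and a few core factors of splice site recognition were followed through a transfection experiment in HepG2 cells, a human hepatocellular carcinoma line. A list of 44 gene symbols defined the set: 13 SR proteins (SRSF1 to SRSF11, TRA2A and TRA2B), 23 genes of the hnRNP group (among them SYNCRIP, PTBP1 and PTBP3), 4 core factors (U2AF1, U2AF2, SF3B1 and RBM39) and the 4 kinases CLK1 to CLK4. All 44 were among the 41412 rows of the count matrix, and all 44 passed the filter on low counts that left 18380 genes for testing. Membership was set by symbol, and the list was chosen with earlier results of these data known. Wild-type cells, by the labels' genotype, received 1 µg of mRNA encoding the fluorescent protein eGFP with the NanoLNP reagent. This mRNA was non-cloaked, or was treated beforehand with the reagent CR-3. The weak-cloaked grade used 0.1 M for 0.5 h at 25 °C, the medium-cloaked grade 0.5 M for 1 h at 30 °C and the strong-cloaked grade 1 M for 2 h at 37 °C. Untransfected cells were the control, and each of the 5 groups had 3 libraries that the labels call biological replicates, from cells lysed at 48 h. Particles lacking mRNA were not given to any group. Effects of the delivery reagent and of the mRNA therefore cannot be told apart in any comparison with untransfected cells. The labels do not say whether the replicates were separate cultures on separate days, and p-values measure the spread between these samples.

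SR proteins bind exonic enhancers through RNA recognition motifs and recruit the early spliceosome through domains rich in arginine and serine. Many hnRNPs bind intronic or exonic silencers and oppose them, so the balance of both families shapes which exons a transcript keeps. CLK kinases phosphorylate SR proteins in the nucleus, and U2AF and SF3B1 mark the 3′ end of the intron. Many SR and hnRNP genes limit their own level through poison exons, whose inclusion sends the transcript to nonsense-mediated decay. The deposited values were counts per gene, which do not separate such isoforms, and splicing itself was not measured here.

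Library totals ran from 57128519 to 78548789 counts in the transfected groups and from 73011663 to 76476960 in untransfected cells, and no member had fewer than 278 counts in any library. Levels are given as CPM, counts relative to the library size, scaled by the trimmed mean of M-values (TMM), with replicates 1, 2 and 3 in that order. A member is said to rise or fall where the adjusted p of edgeR's quasi-likelihood test over all 18380 genes was below 0.05. Weak-cloaked replicate 1 stood apart: its first principal component score was -51.6, whereas the other transfected libraries lay between -7.81 and 44.1 and the untransfected libraries between -70.5 and -68.6. The TMM factors were 0.923 to 1.11 in transfected and 1.13 to 1.15 in untransfected libraries, and the 10 most abundant genes took 7.44 to 9.17% of the counts in transfected and 7.02 to 7.29% in untransfected libraries. Genes with at least 1 count numbered 20273 to 21000 in transfected and 21033 to 21311 in untransfected libraries, with no overlap. Mitochondrially encoded genes took 1.98 to 2.57% of the counts in transfected and 2.41 to 2.75% in untransfected libraries. Of these 13 genes 4 were called lower and none higher. Among the 4, MT-ND4 lay at only 0.132 to 0.222 CPM in transfected and 0.109 to 13.4 CPM in untransfected libraries. Hepatocyte markers were present in all libraries (14 of 14 genes; summed level 22282 to 29096 CPM in transfected and 21905 to 24822 CPM in untransfected libraries). Markers of leukocytes summed to 932 to 1322 CPM in transfected and 1149 to 1571 CPM in untransfected libraries, most of it LYZ, while PTPRC was at 0 in 14 of 15 libraries. Fibroblast and endothelial markers summed to 16.7 to 22.5 CPM in transfected and 20.2 to 24.4 CPM in untransfected libraries. Markers of other epithelia summed to 7.90 to 19.2 CPM in transfected and 3.47 to 5.79 CPM in untransfected libraries, and TP63 was at 0 in all 15. Of these marker genes CD68, KRT17, SERPINA1 and APOA1 were called higher and HNF4A, APOB, PDGFRB and VWF lower in transfected cells. The part of these library measures and markers in the results was not tested. In bulk samples, fewer cells of a type and less RNA per cell cannot be told apart.

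Members differed from untransfected cells in both directions. Over the 12 transfected libraries against the 3 untransfected libraries, 17 of 44 members (38.6%) passed the test, 6 higher and 11 lower. The share over all tested genes was 23.1% in either direction, 10.4% higher and 12.7% lower. Of the 18380 tested genes, 8626 reached the mean CPM of the lowest member. This share and those of the other comparisons therefore cover genes of unlike level. The largest falls were those of HNRNPM and SRSF1 and the largest rise was that of RBM39, a splicing factor related to U2AF2. The median log2 fold change was -0.13 over the members and -0.053 over all tested genes, and 28 members had a negative and 16 a positive value. In 3 risen members (SRSF4, CLK3 and CLK4) all 12 transfected libraries lay above all 3 untransfected libraries, and in 4 fallen members (HNRNPM, SRSF1, SRSF6 and HNRNPA0) all 12 lay below. Such separation was found in 5.12% of tested genes upwards and 5.74% downwards. Without weak-cloaked replicate 1 the count was 20, with 7 higher and 13 lower. It was 8 without untransfected replicate 1 and 10 without untransfected replicate 2. Over all genes these fits called 5938, 2461 and 2148 genes in the same order, against 4242 with all libraries. Scaling to total counts in place of TMM gave 3 higher and 19 lower members; it moved the share of higher calls over all genes to 17.82%, against 44.93% with TMM, and the median of all genes to -0.28.

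**Figure D1:**
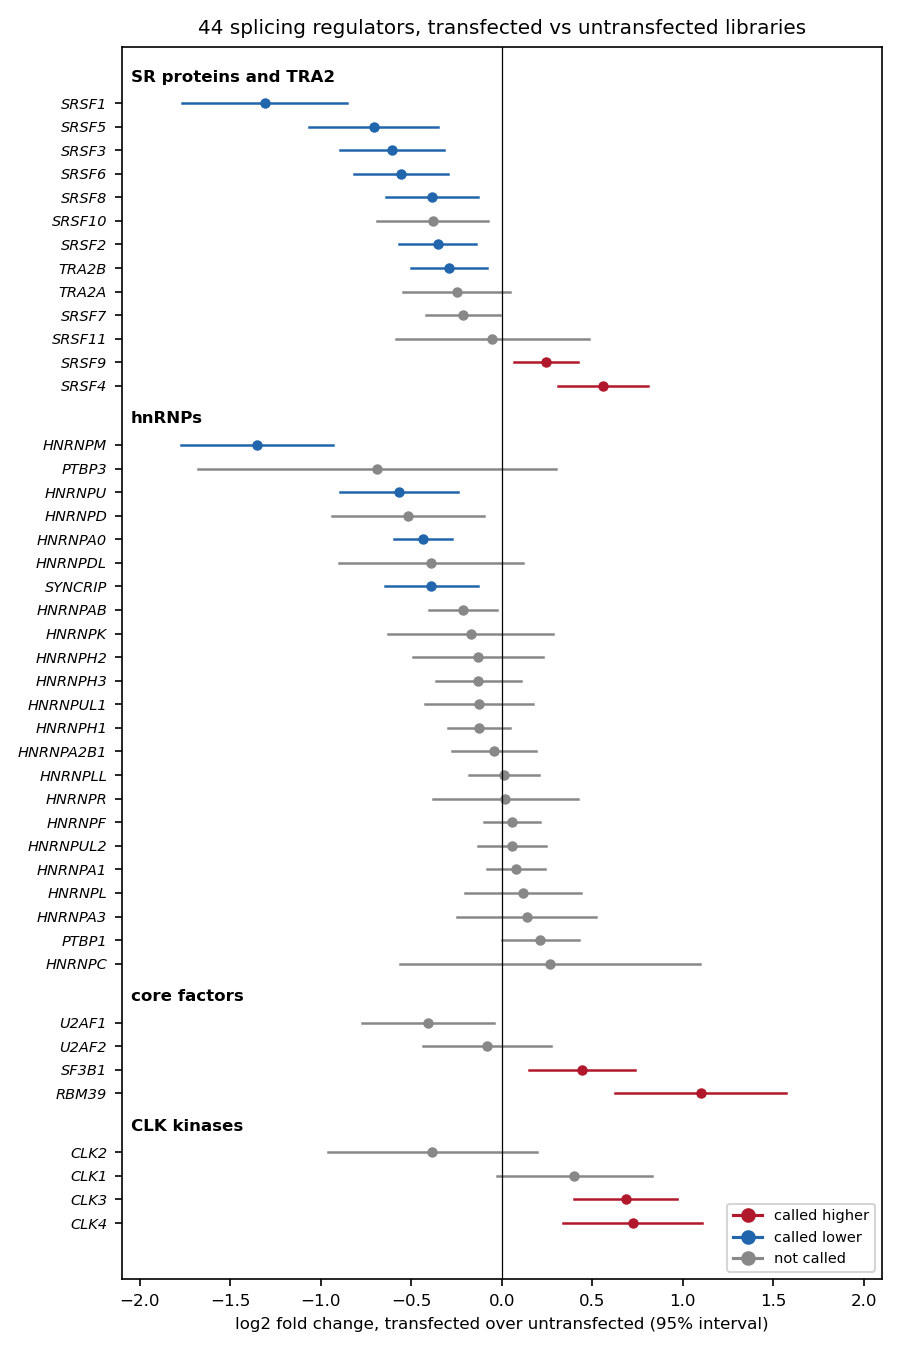
Log2 fold change of each of the 44 genes, mean of the 4 transfected groups over untransfected cells (x axis; points with 95% intervals; rows sorted within each family; colours mark genes called higher, called lower or not called with TMM scaling). SR proteins lie mostly left of 0 (7 lower and 2 higher with TMM, 2 lower and 2 higher once length and GC content were modelled), HNRNPM and SRSF1 lie farthest left, and RBM39, CLK4 and CLK3 farthest right.

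The windows around the annotated start sites of a pair of genes that fell and a pair that rose are given here. Each pair had the largest falls or rises among called members with 1 such window. These windows run from 250 bases before to 50 bases after the start. They come from RefSeq on GRCh38.p14 and are written 5′ to 3′ on the gene's strand: HNRNPM at chr19:8444725-8445024 (plus strand), SRSF1 at chr17:58007197-58007496 (minus strand), CLK4 at chr5:178627001-178627300 (minus strand) and SRSF4 at chr1:29181851-29182150 (minus strand). Capitals mark matches, on either strand, to the letters CACGTG (E-box), CCGGAAG (an ETS motif), to the palindromic NRF1 motif of 10 bases, with any base at the fifth, and to TGACGT (a half-site of the cyclic AMP response element).
HNRNPM: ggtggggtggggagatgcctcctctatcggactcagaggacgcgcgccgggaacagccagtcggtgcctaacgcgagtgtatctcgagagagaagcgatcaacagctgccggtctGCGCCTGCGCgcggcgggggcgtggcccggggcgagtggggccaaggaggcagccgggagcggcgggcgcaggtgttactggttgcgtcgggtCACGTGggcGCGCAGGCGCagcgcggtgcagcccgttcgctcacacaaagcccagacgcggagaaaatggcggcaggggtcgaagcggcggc
SRSF1: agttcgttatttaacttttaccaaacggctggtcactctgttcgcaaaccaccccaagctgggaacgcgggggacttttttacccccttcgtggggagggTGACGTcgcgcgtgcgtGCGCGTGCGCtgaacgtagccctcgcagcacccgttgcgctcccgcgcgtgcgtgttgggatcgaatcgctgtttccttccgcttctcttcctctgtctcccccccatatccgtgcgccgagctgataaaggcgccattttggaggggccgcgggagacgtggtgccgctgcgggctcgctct
CLK4: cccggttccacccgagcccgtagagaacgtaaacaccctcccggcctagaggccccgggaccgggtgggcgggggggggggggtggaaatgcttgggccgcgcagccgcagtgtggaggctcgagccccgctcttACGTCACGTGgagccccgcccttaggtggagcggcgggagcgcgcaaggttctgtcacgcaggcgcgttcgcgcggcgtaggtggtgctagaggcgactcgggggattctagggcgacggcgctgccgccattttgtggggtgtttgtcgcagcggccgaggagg
SRSF4: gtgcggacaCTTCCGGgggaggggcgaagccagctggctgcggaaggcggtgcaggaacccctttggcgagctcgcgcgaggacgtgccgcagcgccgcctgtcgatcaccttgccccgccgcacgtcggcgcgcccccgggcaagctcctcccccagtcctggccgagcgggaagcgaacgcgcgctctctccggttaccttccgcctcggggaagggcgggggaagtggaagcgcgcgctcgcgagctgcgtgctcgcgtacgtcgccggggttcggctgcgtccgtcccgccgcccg
HNRNPM held an E-box and 2 NRF1 matches, SRSF1 an NRF1 match and a half-site, CLK4 an E-box and a half-site that overlap, and SRSF4 an ETS match. Windows were found for 40 of the 44 members (58 windows), all but SRSF2, TRA2A, HNRNPA1 and RBM39. The E-box letters occurred in 22.4% of the members' windows and 7.26% of all 35116 windows, the NRF1 letters in 19% and 5.78%, the half-site in 15.5% and 7.98%, and the ETS letters in 13.8% and 10.3%. The 35116 windows were not limited to genes tested here, and some members had more than 1 window, each counted. The difference between these shares was not tested. Genes of either direction held the matches, and a match is only a run of letters in this window, not a measured binding site.

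Among the SR proteins, 7 of 13 fell and 2 rose. With offsets for transcript length and GC content the counts were 2 and 2, and with total-count scaling 10 fell and 1 rose. Of all 18380 tested genes, 2336 fell and 1906 rose with TMM, 2068 and 2360 with the offsets, and 4358 and 945 with total counts. The median log2 fold change of the SR proteins was -0.35 with TMM, -0.11 with the offsets and -0.58 with total counts. SRSF1 (ENSG00000136450, chromosome 17, 58003360 to 58007346, minus strand; gene coordinates here and for the other genes are those of GENCODE 29 on GRCh38), the prototype of the family and a regulator of both splicing and nonsense-mediated decay, fell most. SRSF1 had 53.1, 43.2 and 57.8 CPM in the non-cloaked libraries, 129, 56.0 and 71.1 in the weak-cloaked, 45.0, 70.2 and 54.0 in the medium-cloaked and 40.4, 76.5 and 69.0 in the strong-cloaked libraries, against 163, 139.5 and 162 CPM in the untransfected libraries. Every transfected library was below every untransfected one, and weak-cloaked replicate 1 came closest. SRSF1 fell by 1.31 ± 0.21 on the log2 scale (SE; edgeR adjusted p = 0.00191), the equivalent of a level 0.403 times that of untransfected cells. A neighbouring transcript on the same strand, AC015813.2, shares 56.2% of the 100-base windows of SRSF1, so its reads may have been split or dropped in counting.

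SRSF5 and SRSF6 are close relatives that bind exonic enhancers. SRSF5 had 31.6, 24.5 and 22.1 CPM in the non-cloaked libraries, 43.4, 28.7 and 23.1 in the weak-cloaked, 28.1, 22.9 and 21.3 in the medium-cloaked and 30.9, 23.0 and 22.3 in the strong-cloaked libraries, against 43.9, 40.9 and 46.0 CPM in the untransfected libraries. Apart from weak-cloaked replicate 1, which lay within the untransfected range, all transfected libraries were lower. SRSF5 fell by 0.71 ± 0.17 on the log2 scale (SE; edgeR adjusted p = 0.00958). SRSF6 had 41.1, 34.0 and 33.0 CPM in the non-cloaked libraries, 46.0, 41.5 and 33.5 in the weak-cloaked, 41.2, 34.9 and 40.0 in the medium-cloaked and 30.5, 38.2 and 42.2 in the strong-cloaked libraries, against 62.8, 52.8 and 52.0 CPM in the untransfected libraries. The groups did not overlap. SRSF6 fell by 0.56 ± 0.12 on the log2 scale (SE; edgeR adjusted p = 0.0067), a call that was lost with length and GC offsets and without untransfected replicate 1.

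SRSF3, the smallest SR protein, also takes part in mRNA export. SRSF3 had 161, 139 and 216 CPM in the non-cloaked libraries, 208, 156 and 142 in the weak-cloaked, 163, 156 and 159 in the medium-cloaked and 138, 158 and 136 in the strong-cloaked libraries, against 278, 252 and 203 CPM in the untransfected libraries. Non-cloaked replicate 3 and weak-cloaked replicate 1 were above the lowest untransfected library, and the other transfected libraries lay below. SRSF3 fell by 0.61 ± 0.13 on the log2 scale (SE; edgeR adjusted p = 0.00727), a call again lost with the offsets and without untransfected replicate 1. Smaller falls were measured for SRSF8, a gene derived from an SRSF2 transcript, for SRSF2 itself and for TRA2B, the human counterpart of a fly sex-determination regulator. SRSF8 averaged 13.0 ± 1.64 CPM in the 12 transfected libraries and 17.0 ± 0.497 CPM in the 3 untransfected libraries (SD), and fell by 0.39 ± 0.12 on the log2 scale (SE; edgeR adjusted p = 0.0316). That call was lost without medium-cloaked replicate 1 or 3, strong-cloaked replicate 2 or any 1 untransfected library. SRSF2 averaged 97.1 ± 4.67 CPM in the 12 transfected libraries and 124 ± 25.8 CPM in the 3 untransfected libraries (SD) and fell by 0.35 ± 0.10 on the log2 scale (SE; edgeR adjusted p = 0.0209). Its untransfected replicates spread over 151, 121 and 100.1 CPM, and the call was lost without untransfected replicate 1 and without replicate 2. TRA2B fell by 0.29 ± 0.10 on the log2 scale (SE; edgeR adjusted p = 0.0468) with TMM, whereas its estimate with the offsets was 0.021. With a library left out the TRA2B call held only where that was non-cloaked replicate 1 or weak-cloaked replicate 1 or 3.

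SRSF4 and SRSF9 went the other way. SRSF4 had 220.3, 249 and 212 CPM in the non-cloaked libraries, 188, 271 and 302 in the weak-cloaked, 262, 266 and 282 in the medium-cloaked and 257, 280.4 and 269.8 in the strong-cloaked libraries, against 171, 167 and 180.0 CPM in the untransfected libraries. All transfected libraries were higher than all untransfected ones, with weak-cloaked replicate 1 nearest to them. SRSF4 rose by 0.56 ± 0.11 on the log2 scale (SE; edgeR adjusted p = 0.00575). SRSF9 had 188, 191 and 204 CPM in the non-cloaked libraries, 174, 183 and 212 in the weak-cloaked, 177, 179 and 184 in the medium-cloaked and 202, 207 and 180.2 in the strong-cloaked libraries, against 176, 158 and 147 CPM in the untransfected libraries. The ranges overlapped. SRSF9 rose by 0.24 ± 0.083 on the log2 scale (SE; edgeR adjusted p = 0.0484), a call lost with total-count scaling, with no filter on low counts, and with any library left out other than weak-cloaked replicate 1, strong-cloaked replicate 3 or untransfected replicate 1. All 100-base windows of its transcript are shared with GATC on the opposite strand, which makes its counts uncertain. The other 4 SR genes were not called: SRSF7 at -0.22 ± 0.10, SRSF10 at -0.38 ± 0.14, TRA2A at -0.25 ± 0.14 and SRSF11 at -0.052 ± 0.25 (log2 fold change, SE), with edgeR adjusted p from 0.0701 for SRSF10 to 0.906 for SRSF11.

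**Figure D2:**
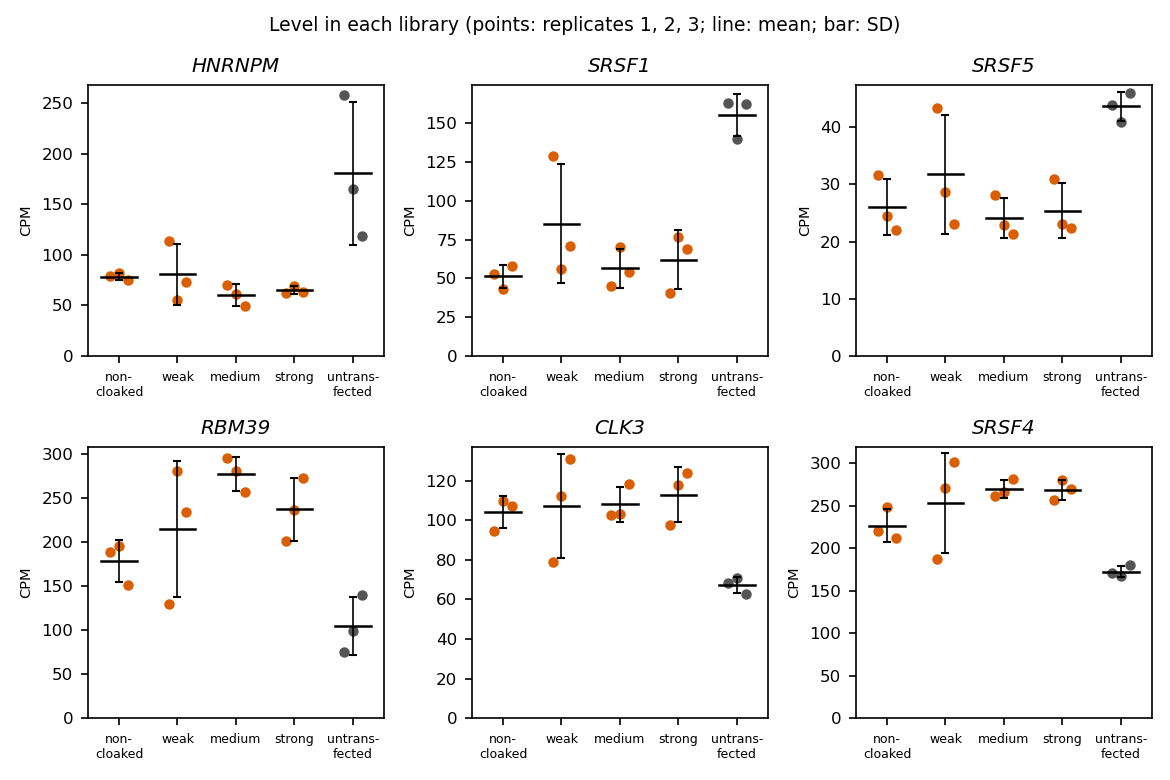
Level in CPM (y axis, from 0) of the 6 genes that kept their call in each of 8 alternative analyses and with each library left out, by group (points are libraries, lines are means, bars are SD, n = 3). HNRNPM, SRSF1 and SRSF5 are lower, and RBM39, CLK3 and SRSF4 higher, in the transfected groups; weak-cloaked replicate 1, the first point of its group, lies nearest to the untransfected libraries.

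Of the 23 hnRNP genes, 4 fell and none rose with TMM. Total-count scaling gave 8 lower, and the length and GC offsets gave 1 higher and 2 lower. Of all 18380 tested genes, 2336 (12.7%) fell and 1906 (10.4%) rose with TMM, 4358 and 945 with total counts, and 2068 and 2360 with the offsets. HNRNPM (ENSG00000099783, chromosome 19, 8444767 to 8489114, plus strand), a repressor and activator of alternative exons known from the splicing programmes of epithelial and mesenchymal cells, had the largest fall of the whole set. HNRNPM had 78.9, 81.7 and 75.3 CPM in the non-cloaked libraries, 114, 55.6 and 72.8 in the weak-cloaked, 70.6, 61.3 and 49.5 in the medium-cloaked and 62.6, 69.6 and 63.5 in the strong-cloaked libraries, against 258, 165 and 119 CPM in the untransfected libraries. The untransfected libraries differed among themselves by 2.17-fold, yet the lowest of them was above all 12 transfected libraries. HNRNPM fell by 1.35 ± 0.19 on the log2 scale (SE; edgeR adjusted p = 0.00106), a level 0.391 times that of untransfected cells. With length and GC offsets the estimate was -1.38.

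HNRNPU, also called scaffold attachment factor A, binds chromatin-associated RNA. HNRNPU had 416, 304 and 419.9 CPM in the non-cloaked libraries, 340.2, 435 and 314 in the weak-cloaked, 248, 405 and 349.9 in the medium-cloaked and 389.8, 414 and 396 in the strong-cloaked libraries, against 644, 423 and 574 CPM in the untransfected libraries. Weak-cloaked replicate 2 exceeded the lowest untransfected library. HNRNPU fell by 0.57 ± 0.15 on the log2 scale (SE; edgeR adjusted p = 0.0175); the estimate with length and GC offsets was -0.075 and was not called, and the call was also lost without untransfected replicate 1 or 3. HNRNPA0 binds AU-rich elements in mRNA. HNRNPA0 had 133, 129.9 and 116 CPM in the non-cloaked libraries, 135, 120.3 and 127 in the weak-cloaked, 120.2, 112 and 109 in the medium-cloaked and 135, 120.0 and 112 in the strong-cloaked libraries, against 168, 162 and 166 CPM in the untransfected libraries. The values were among the tightest of the set and the groups did not overlap. HNRNPA0 fell by 0.43 ± 0.075 on the log2 scale (SE; edgeR adjusted p = 0.0025), and with the offsets its value was -0.093 and not called. SYNCRIP, or hnRNP Q, acts in mRNA stability and translation. SYNCRIP had 93.8, 76.4 and 79.1 CPM in the non-cloaked libraries, 123, 89.5 and 73.7 in the weak-cloaked, 91.9, 97.6 and 99.3 in the medium-cloaked and 80.2, 85.1 and 92.9 in the strong-cloaked libraries, against 114, 113 and 127 CPM in the untransfected libraries. Only weak-cloaked replicate 1 reached the untransfected range. SYNCRIP fell by 0.39 ± 0.12 on the log2 scale (SE; edgeR adjusted p = 0.0328) with TMM, and its estimate with the offsets was 0.044. The call was lost without non-cloaked replicate 2, weak-cloaked replicate 2, medium-cloaked replicate 1 or any 1 untransfected library.

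The other 19 hnRNP genes did not pass the test, at log2 fold changes from -0.69 (PTBP3) to 0.27 (HNRNPC) and edgeR adjusted p from 0.0720 (HNRNPD) to 0.952 (HNRNPR). HNRNPD, or AUF1, a factor of mRNA decay, averaged 246 ± 54.3 CPM in the 12 transfected libraries and 349 ± 75.6 CPM in the 3 untransfected libraries (SD). PTBP1, the polypyrimidine tract repressor, lay at 404 to 552 CPM in transfected and 365 to 465 CPM in untransfected libraries, at a log2 fold change of 0.21 ± 0.10 (SE; edgeR adjusted p = 0.133). The abundant HNRNPA1 was at 0.079 ± 0.075 (SE; edgeR adjusted p = 0.485), with a 95% interval of -0.082 to 0.24, and HNRNPF, which binds G tracts, at 0.055 ± 0.072 (SE; edgeR adjusted p = 0.626), with an interval of -0.10 to 0.21. HNRNPLL and HNRNPR had the smallest differences. HNRNPLL had 48.5, 54.4 and 58.3 CPM in the non-cloaked libraries, 52.8, 54.6 and 50.7 in the weak-cloaked, 62.7, 52.3 and 52.3 in the medium-cloaked and 54.1, 53.4 and 50.9 in the strong-cloaked libraries, against 56.8, 47.5 and 55.4 CPM in the untransfected libraries. All groups overlapped, and the log2 fold change was 0.014 ± 0.090 (SE; edgeR adjusted p = 0.933), with a 95% interval of -0.18 to 0.21. HNRNPR had 160.2, 116 and 106 CPM in the non-cloaked libraries, 169, 156 and 148 in the weak-cloaked, 156, 269.9 and 173 in the medium-cloaked and 212, 119.5 and 205 in the strong-cloaked libraries, against 151, 161 and 172 CPM in the untransfected libraries. Here replicates of one group spread widely, and the interval around 0.020 ± 0.19 was -0.38 to 0.42.

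SF3B1 and RBM39 rose, and neither U2AF subunit was called. The counts of 2 higher and 0 lower of 4 held with length and GC offsets, while total-count scaling gave 1 higher (RBM39) and 1 lower (U2AF1). Of all tested genes, 10.4% rose and 12.7% fell with TMM, and the counts for the other scalings are given with the SR proteins. RBM39 (ENSG00000131051, chromosome 20, 35701347 to 35742312, minus strand) had the largest rise of the set. RBM39 had 188, 195 and 151 CPM in the non-cloaked libraries, 129.9, 280.4 and 234 in the weak-cloaked, 295, 280.4 and 256 in the medium-cloaked and 201, 236 and 272 in the strong-cloaked libraries, against 75.0, 98.9 and 139.5 CPM in the untransfected libraries. Weak-cloaked replicate 1 lay below the highest untransfected library, and the other transfected libraries lay above all 3. RBM39 rose by 1.10 ± 0.22 on the log2 scale (SE; edgeR adjusted p = 0.00493), a level 2.14 times that of untransfected cells. SF3B1 is the U2 snRNP subunit that contacts the branch point. SF3B1 had 261, 210.3 and 173 CPM in the non-cloaked libraries, 260.2, 282 and 216 in the weak-cloaked, 317, 305 and 314 in the medium-cloaked and 232, 247 and 316 in the strong-cloaked libraries, against 165, 182 and 224 CPM in the untransfected libraries. The ranges overlapped through non-cloaked replicates 2 and 3 and weak-cloaked replicate 3. SF3B1 rose by 0.44 ± 0.14 on the log2 scale (SE; edgeR adjusted p = 0.0328), a call lost with total-count scaling (0.22) and without untransfected replicate 1 or 2. U2AF1, which reads the AG at the end of the intron, was at -0.41 ± 0.17 (SE; edgeR adjusted p = 0.0969), and U2AF2, which binds the polypyrimidine tract, at -0.080 ± 0.16 (SE; edgeR adjusted p = 0.769). Because 97.8% of the windows of U2AF1 are shared, mainly with its near-identical copy U2AF1L5, its counts are uncertain.

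Of the 4 CLK kinases 2 rose and none fell. With total-count scaling 1 rose, and with length and GC offsets 3 did, CLK1 among them. Of all tested genes, 10.4% rose and 12.7% fell with TMM, and the counts for the other scalings are given with the SR proteins. CLK3 had 94.8, 109.9 and 107 CPM in the non-cloaked libraries, 78.8, 112 and 131 in the weak-cloaked, 103, 103 and 118 in the medium-cloaked and 97.4, 118 and 124 in the strong-cloaked libraries, against 68.1, 70.9 and 62.7 CPM in the untransfected libraries. All 12 transfected libraries exceeded all untransfected ones. CLK3 (ENSG00000179335, chromosome 15, 74598500 to 74645414, plus strand) rose by 0.68 ± 0.13 on the log2 scale (SE; edgeR adjusted p = 0.00426). CLK4 had 7.59, 8.58 and 9.90 CPM in the non-cloaked libraries, 10.6, 12.5 and 8.36 in the weak-cloaked, 11.7, 10.7 and 11.8 in the medium-cloaked and 9.20, 8.07 and 12.6 in the strong-cloaked libraries, against 4.86, 6.28 and 7.19 CPM in the untransfected libraries. Again the groups did not overlap, at levels that make CLK4 the lowest of the set per length. CLK4 rose by 0.72 ± 0.18 on the log2 scale (SE; edgeR adjusted p = 0.0122), a call lost with total-count scaling (0.50) and without untransfected replicate 1 or 2. CLK1, which itself carries retained introns that respond to CLK activity, was not called. CLK1 had 24.2, 18.7 and 23.9 CPM in the non-cloaked libraries, 26.2, 39.0 and 23.3 in the weak-cloaked, 33.1, 35.9 and 42.4 in the medium-cloaked and 23.1, 25.1 and 37.8 in the strong-cloaked libraries, against 17.3, 20.2 and 28.3 CPM in the untransfected libraries. All 3 medium-cloaked libraries lay above the untransfected range, and the other groups overlapped with it. Its log2 fold change was 0.40 ± 0.20 (SE; edgeR adjusted p = 0.162) with TMM, and 0.77 (adjusted p = 0.00966) with the offsets. CLK2 had 9.15, 10.4 and 13.8 CPM in the non-cloaked libraries, 10.5, 9.14 and 5.58 in the weak-cloaked, 4.89, 8.39 and 4.45 in the medium-cloaked and 8.34, 10.9 and 4.31 in the strong-cloaked libraries, against 12.3, 11.2 and 8.20 CPM in the untransfected libraries. Medium-cloaked replicates 1 and 3 and strong-cloaked replicate 3 were the lowest, and CLK2 had a log2 fold change of -0.38 ± 0.27 (SE; edgeR adjusted p = 0.33).

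Over all tested genes, log2 fold changes differed with the GC content of the transcripts. The longest transcripts of the members had a median GC content of 41.2%, against 49.4% for tested genes, and 36 of 44 lay below that median. Their median length was 4130 bases, against 3181.5. Within the set, median GC content was 41.3% in the 6 risen, 40.4% in the 11 fallen and 42.1% in the 27 other members. Among the 4576 tested genes of lowest GC content, the median log2 fold change was -0.30 over all genes and -0.15 over the 28 members there. In the next 2 GC classes, also of 4576 genes each, it was -0.086 and 0.056 over all genes, against -0.24 over 8 members and -0.17 over 6 members. In the class of highest GC content it was 0.13 over all genes and 0.067 over 2 members. With offsets that remove a smooth dependence on length and GC content in each library, 12 members were called, 8 higher and 4 lower, and 9 of the 17 kept their call and sign: SRSF1, SRSF5 and HNRNPM fell, and SRSF4, SRSF9, SF3B1, RBM39, CLK3 and CLK4 rose. Over all tested genes the offsets gave 4428 calls, 2360 higher and 2068 lower, which moved the share of higher calls to 53.3%, against 44.93% with TMM alone. HNRNPA3 (0.54), CLK1 (0.77) and HNRNPAB (-0.31) were called with the offsets and not with TMM alone. SRSF2, SRSF3, SRSF6, SRSF8, HNRNPA0 and HNRNPU were no longer called, and TRA2B and SYNCRIP changed sign. SRSF9 kept its call narrowly (edgeR adjusted p = 0.0499) and lost it with offsets plus replicate block. The members' median was 0.010 with the offsets. The offsets used the longest annotated transcript of each gene, which need not be the one expressed. The cause of the dependence on GC content was not tested.

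**Figure D3:**
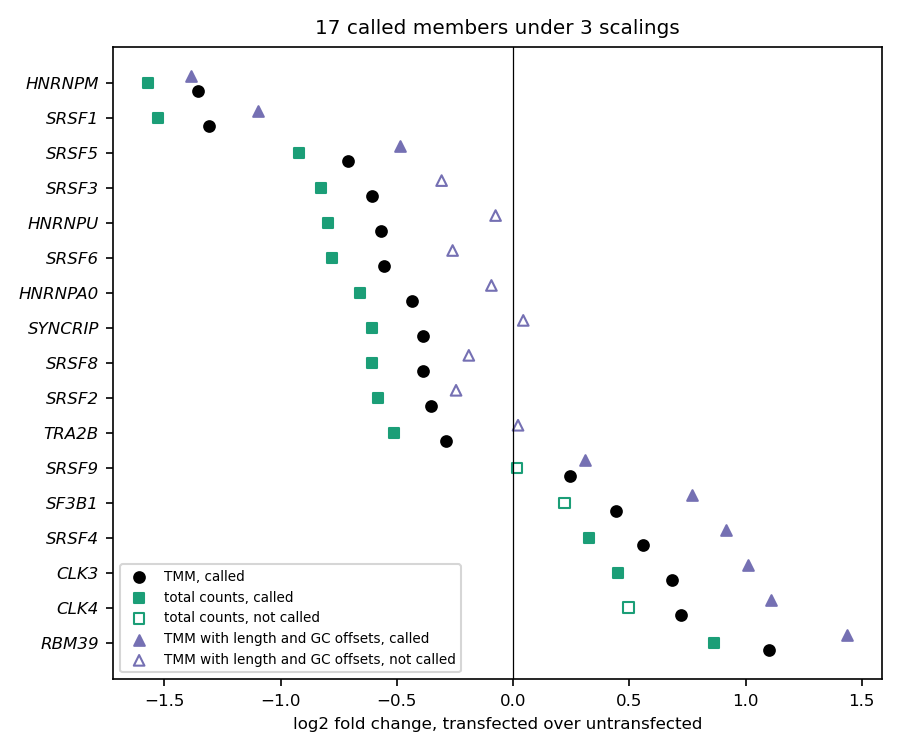
Log2 fold change, transfected over untransfected (x axis), of the 17 genes called with TMM, under TMM (circles), total-count scaling (squares) and TMM with length and GC offsets (triangles); filled symbols are called. HNRNPM and SRSF1 keep values below -1 under all 3, most of the smaller falls approach 0 with the offsets and TRA2B and SYNCRIP cross it, and the rises are larger with the offsets and smaller with total counts.

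Set against untransfected cells one group at a time, 5 of 44 members were called for non-cloaked mRNA (1 higher and 4 lower), 4 for weak-cloaked (3 higher and 1 lower), 12 for medium-cloaked (5 higher and 7 lower) and 11 for strong-cloaked mRNA (4 higher and 7 lower). The shares over all tested genes were 6.5% for non-cloaked (3.84% higher and 2.66% lower), 3.29% for weak-cloaked (2.11% and 1.19%), 13.7% for medium-cloaked (6.25% and 7.49%) and 15.1% for strong-cloaked mRNA (7.99% and 7.11%). These 4 comparisons share the untransfected libraries, so their values are given side by side only. HNRNPM had log2 fold changes of -1.20, -1.16, -1.58 and -1.47 in non-cloaked, weak-, medium- and strong-cloaked cells, and it was called in all 4. So was CLK3, at 0.63, 0.67, 0.69 and 0.75 in the same order. SRSF1, at -1.59, -0.86, -1.46 and -1.32, was called in all but the weak-cloaked group (adjusted p = 0.109), whose replicate 1 lay near the untransfected level. SRSF6, at -0.63, -0.47, -0.53 and -0.60, and HNRNPA0, at -0.39, -0.38, -0.54 and -0.43, were called in the same 3 groups. RBM39, at 0.77, 1.04, 1.41 and 1.18, and SRSF4, at 0.39, 0.55, 0.64 and 0.64, were called in the 3 cloaked groups. CLK4, SRSF3 and SRSF5 were called in the medium- and strong-cloaked groups, SF3B1 and HNRNPU in the medium-cloaked group and SRSF2 in the strong-cloaked group. The sign was the same in all 4 groups for each of the 17 members called overall. A call in one group and not in another does not show that the groups differ.

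These counts moved with single libraries. For non-cloaked mRNA the count was 0 without its replicate 2, 1 without its replicate 3, without untransfected replicate 1 or without untransfected replicate 2, and 3 without untransfected replicate 3. For weak-cloaked mRNA it was 12 without replicate 1 (4 higher and 8 lower, when 4007 of all genes were called in place of 605), 0 without replicate 2, replicate 3, untransfected replicate 1 or untransfected replicate 2, and 2 without untransfected replicate 3. For medium-cloaked mRNA it was 7 without replicate 2, 4 without replicate 3, 6 without untransfected replicate 1 and 7 without untransfected replicate 2. For strong-cloaked mRNA it was 6 without replicate 2, 4 without replicate 3, 6 without untransfected replicate 1 and 4 without untransfected replicate 2. With length and GC offsets the counts were 4 higher and 2 lower for non-cloaked, 5 and 1 for weak-cloaked, 6 and 4 for medium-cloaked and 7 and 3 for strong-cloaked mRNA. Over all genes they were 673 higher and 336 lower for non-cloaked, 791 and 446 for weak-cloaked, 1844 and 1523 for medium-cloaked and 1670 and 1214 for strong-cloaked mRNA. Higher calls were thus 66.7%, 63.95%, 54.77% and 57.91% of all calls with the offsets, against 59.08%, 63.97%, 45.48% and 52.92% with TMM alone. With single libraries left out, the calls over all genes moved as well: they numbered 119 to 1127 for non-cloaked, 114 to 4007 for weak-cloaked, 785 to 2089 for medium-cloaked and 728 to 1757 for strong-cloaked mRNA.

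**Figure D4:**
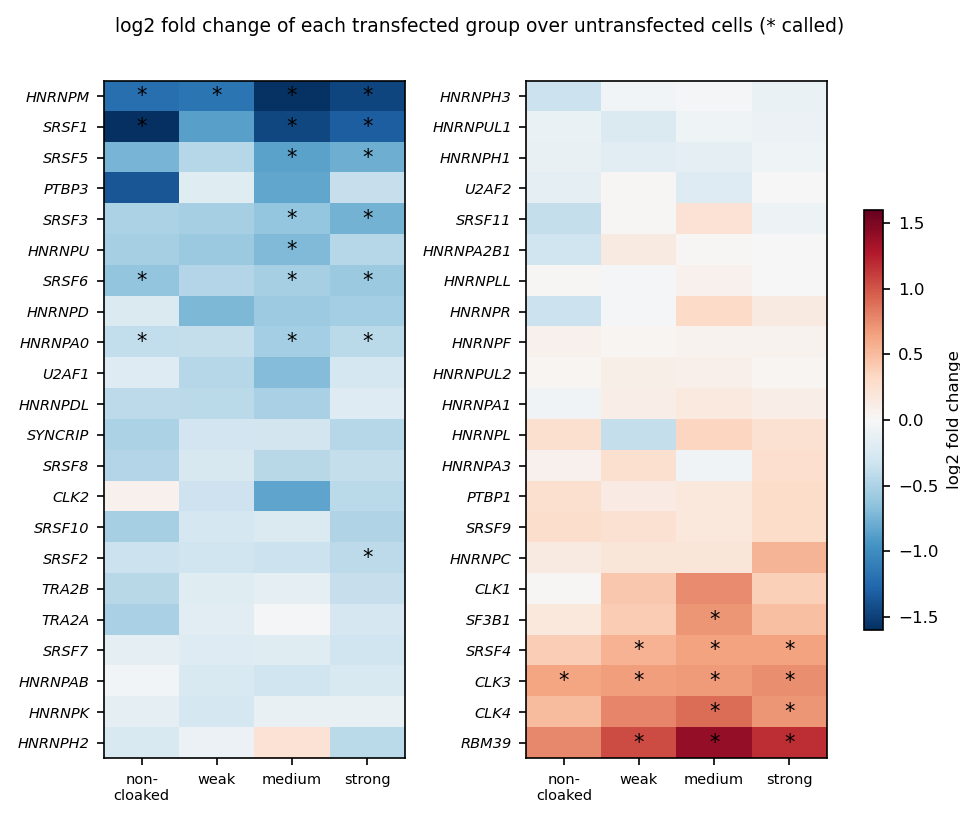
Log2 fold change of each of the 44 genes (rows, sorted by the mean over the transfected groups) in each transfected group over untransfected cells (columns; colour scale in log2 units; asterisks mark called genes; TMM scaling). HNRNPM and CLK3 carry an asterisk in all 4 columns, and each of the 17 genes called over all transfected libraries has 1 sign across the columns.

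Comparing cloaked with non-cloaked mRNA asks whether the CR-3 treatment of the mRNA changes the response of the cells. No member was called for weak-, medium- or strong-cloaked against non-cloaked mRNA by edgeR or by DESeq2, and none in edgeR's F test or DESeq2's likelihood ratio test across the 4 transfected groups. Over all genes edgeR called 1 for weak-cloaked (0.00544%), 0 for medium-cloaked (0%), 0 for strong-cloaked mRNA (0%) and 1 in the test of any difference (0.00544%), against 19, 76, 15 and 55 by DESeq2. At an unadjusted p below 0.05 there were 3 members for weak-cloaked, 13 for medium-cloaked and 1 for strong-cloaked mRNA, and 4 in the test of any difference. Over all tested genes 721 (3.92%), 1746 (9.5%), 663 (3.61%) and 753 (4.1%) reached that threshold in the same order, against 6.82%, 29.5%, 2.27% and 9.09% of the members. Many tested genes lay below the lowest member in mean CPM, so these shares cover genes of unlike level. The median 95% interval of a member reached 0.38 to either side on the log2 scale, and it lay within -1 and 1 for 37 of 44 members in the weak-cloaked, 37 in the medium-cloaked and 41 in the strong-cloaked comparison. The test at this size thus does not show that the grades act alike.

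HNRNPL, which binds CA repeats, and HNRNPA2B1, a relative of HNRNPA1 that also reads methylated adenosine, had the smallest p in the test of any difference, 0.00814 and 0.0281 before adjustment and 0.992 after (edgeR). HNRNPL had 402, 423 and 431 CPM in the non-cloaked libraries, 312, 219.8 and 273 in the weak-cloaked, 503, 458 and 371 in the medium-cloaked and 549, 388 and 306 in the strong-cloaked libraries, against 365, 358 and 325 CPM in the untransfected libraries. The weak-cloaked libraries were the lowest group, below all non-cloaked and all untransfected libraries. Weak-cloaked over non-cloaked, HNRNPL was at -0.64 ± 0.19 (SE; edgeR adjusted p = 0.973), with a 95% interval of -1.05 to -0.24. HNRNPA2B1 had 446, 631 and 623 CPM in the non-cloaked libraries, 799, 810.3 and 740.5 in the weak-cloaked, 650.0, 694 and 806 in the medium-cloaked and 614, 732 and 778 in the strong-cloaked libraries, against 696, 721 and 709.8 CPM in the untransfected libraries. The non-cloaked group had the lowest mean, and its replicate 1 was the lowest of all 15 libraries. HNRNPA2B1 was at 0.47 ± 0.14 in weak-cloaked, 0.34 ± 0.14 in medium-cloaked and 0.32 ± 0.14 in strong-cloaked over non-cloaked cells (log2, SE).

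The 13 members with an unadjusted p below 0.05 for medium-cloaked over non-cloaked mRNA had 10 positive and 3 negative log2 fold changes, and edgeR adjusted p from 0.467 to 0.520. Over all tested genes 756 positive (4.11%) and 990 negative values (5.39%) reached that threshold. Among them SF3B1 was at 0.54 ± 0.17, RBM39 at 0.64 ± 0.26, HNRNPR at 0.65 ± 0.24 and TRA2A at 0.50 ± 0.18 (SE). The kinases went both ways: CLK1 was at 0.74 ± 0.25, with a 95% interval of 0.21 to 1.26, and CLK2 at -0.91 ± 0.35, with an interval of -1.67 to -0.15. None of these differences passed the correction over all genes.

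Levels within the set spanned a wide range when set per length of the longest transcript. HNRNPA1 stood highest, at 507 CPM per kb in transfected and 479.5 ± 32.9 CPM per kb in untransfected libraries. HNRNPC followed at 249 CPM per kb in transfected and 206 ± 59.7 CPM per kb in untransfected libraries, then HNRNPK at 147 CPM per kb in transfected and 166 ± 70.2 CPM per kb in untransfected libraries and HNRNPF at 149.7 CPM per kb in transfected and 144 ± 16.2 CPM per kb in untransfected libraries; these 3 did not differ beyond their spread in untransfected cells. The lowest were SRSF8 at 3.23 CPM per kb in transfected and 4.21 ± 0.123 CPM per kb in untransfected libraries, CLK2 at 3.08 CPM per kb in transfected and 3.92 ± 0.79 CPM per kb in untransfected libraries and CLK4 at 2.72 CPM per kb in transfected and 1.64 ± 0.315 CPM per kb in untransfected libraries. The members together took 0.921 to 1.12% of the counts in transfected and 1.13 to 1.25% in untransfected libraries, while their summed level after TMM scaling was 9532 to 11770 CPM in transfected and 10042 to 10941 CPM in untransfected libraries.

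Several members varied widely between replicates. In 11 members the replicates of at least 1 group spanned 2-fold or more; the genes described here were chosen for that spread after their values were seen. HNRNPC packages nascent transcripts and competes with U2AF2 for uridine tracts. HNRNPC had 743, 738 and 1597 CPM in the non-cloaked libraries, 735, 1734 and 712 in the weak-cloaked, 747, 1673 and 751 in the medium-cloaked and 1582, 1739 and 722 in the strong-cloaked libraries, against 763, 1237 and 779 CPM in the untransfected libraries. Its values fell into separate ranges, 712 to 779 CPM in 9 libraries and 1237 to 1739 CPM in 6, and both ranges occurred in every group. PTBP3, a paralogue of PTBP1, had the widest spread. PTBP3 had 20.7, 18.4 and 11.1 CPM in the non-cloaked libraries, 48.8, 36.5 and 27.5 in the weak-cloaked, 3.81, 38.5 and 30.0 in the medium-cloaked and 27.0, 44.7 and 28.7 in the strong-cloaked libraries, against 26.1, 38.3 and 64.7 CPM in the untransfected libraries. Medium-cloaked replicates differed by 10.1-fold, and the interval of its log2 fold change was -1.68 to 0.30. SRSF11 had 71.5, 70.7 and 60.5 CPM in the non-cloaked libraries, 97.9, 99.9 and 70.7 in the weak-cloaked, 102, 113 and 97.4 in the medium-cloaked and 79.2, 70.5 and 102 in the strong-cloaked libraries, against 50.3, 63.2 and 151 CPM in the untransfected libraries. Untransfected replicate 3 was the highest of all 15 libraries, and untransfected replicate 1 the lowest. HNRNPK had 391, 473 and 448 CPM in the non-cloaked libraries, 410.2, 336 and 454 in the weak-cloaked, 351, 507 and 489 in the medium-cloaked and 362, 501 and 483 in the strong-cloaked libraries, against 642, 569.6 and 253 CPM in the untransfected libraries. For HNRNPK, untransfected replicate 3 was instead the lowest of all and replicates 1 and 2 the highest. The cause of this spread was not tested. HNRNPF, HNRNPA1 and HNRNPA0 had the tightest replicates.

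**Figure D5:**
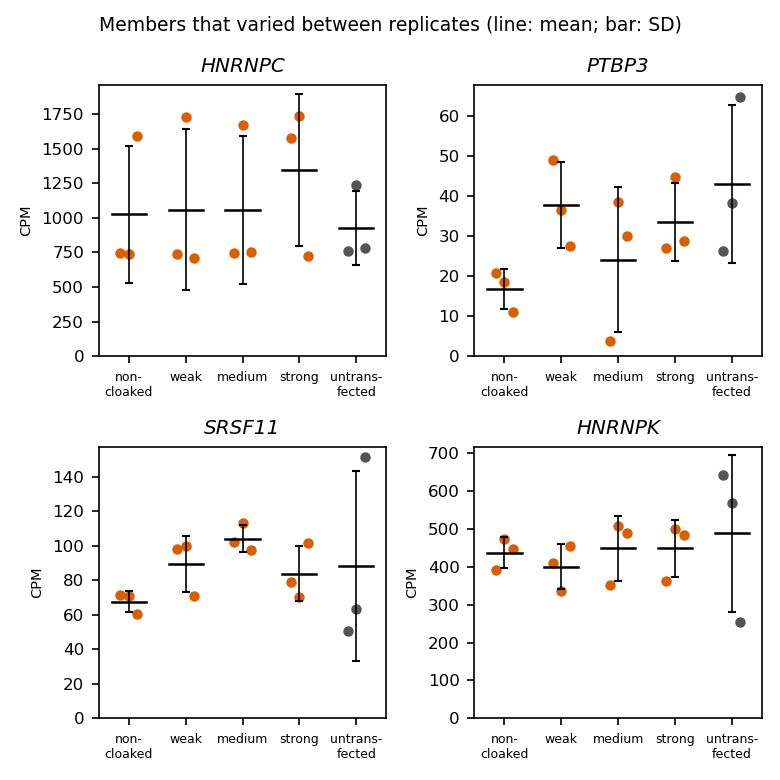
Level in CPM (y axis, from 0) of 4 genes whose replicates varied, by group (points are libraries, lines are means, bars are SD, n = 3). HNRNPC lies either at 712 to 779 CPM or at 1237 to 1739 CPM in every group, PTBP3 spans 3.81 to 38.5 CPM in the medium-cloaked group, and untransfected replicate 3 is high for SRSF11 and low for HNRNPK.

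The rest of the splicing machinery was read from 7 other lists, 120 genes in all, of which 13 rose and 26 fell against untransfected cells, with a median of -0.067 (log2, TMM). Of all tested genes, 10.4% rose and 12.7% fell, with a median of -0.053. Among 12 Sm, U1 and U2 snRNP proteins 4 rose and none fell, with a median of 0.20 (-0.029 with total-count scaling): SNRPG (0.45, adjusted p = 0.00385), SNRNP70 (0.64, adjusted p = 0.00643), SNRPD2 (0.45, adjusted p = 0.00665) and SNRPA1 (0.23, adjusted p = 0.026). Of 12 genes of the SF3 complexes 3 rose, SF3B6 (0.40, adjusted p = 0.00652), PHF5A (0.51, adjusted p = 0.00725) and SF3B2 (1.00, adjusted p = 0.0232), and 2 fell, with U2SURP (-1.22, adjusted p = 0.00576) the first by p. Of 23 tri-snRNP and catalytic factors 3 rose and 5 fell, with BUD31 (0.65, adjusted p = 0.00178) and USP39 (0.38, adjusted p = 0.0104) up and PRPF6 (-0.50, adjusted p = 0.0111) and PRPF19 (-0.46, adjusted p = 0.0167) down. Of 6 genes for SR protein kinases and import, the cytoplasmic kinase SRPK1 (-0.65, adjusted p = 0.015) fell and PRPF4B (0.73, adjusted p = 0.0496) rose.

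SR-related proteins had 8 falls and 1 rise among 21, with a median of -0.20. Those of smallest p were SCAF8 (-0.61, adjusted p = 0.00468), SAFB2 (-0.63, adjusted p = 0.00592) and THRAP3 (-0.72, adjusted p = 0.0128), and the rise was PNN (0.79, adjusted p = 0.00656). Of 5 exon junction genes only MAGOHB (-0.79, adjusted p = 0.00363) was called. Of 41 other splicing regulators 9 fell and 1 rose, with a median of -0.22. Among those that fell were the helicase DDX17 (-1.26, adjusted p = 0.000772), the paraspeckle protein PSPC1 (-0.66, adjusted p = 0.00338) and RBM5 (-2.17, adjusted p = 0.00591). DDX17 averaged 83.5 CPM in transfected and 198 CPM in untransfected libraries. All adjusted p in these lists are from edgeR over all 18380 genes. The counts depended on the scaling. Total counts gave 3 higher and 1 lower of the snRNP proteins, 2 and 3 of the SF3 genes, 1 and 11 of the tri-snRNP and catalytic factors, 0 and 1 of the kinase and import genes, 1 and 10 of the SR-related proteins, 0 and 3 of the exon junction genes and 1 and 19 of the other regulators. The length and GC offsets gave 4 and 0, 4 and 2, 3 and 5, 3 and 1, 2 and 7, 0 and 1, and 2 and 8 for the lists in that order. Of all 18380 tested genes, total counts gave 945 higher and 4358 lower, and the offsets 2360 higher and 2068 lower.

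Reads of some members can be shared with other genes. In 21 members no 100-base window of the longest transcript recurs in another annotated gene, and in 10 at least 10% do. Besides SRSF1, SRSF9 and U2AF1, these are HNRNPUL2 (44.7%, a read-through with BSCL2), HNRNPA1 (25.6%, over 11 genes), SRSF2 (24.6%, MFSD11 on the opposite strand), HNRNPL (15.4%), HNRNPH2 (12.5%, a read-through with RPL36A), HNRNPA3 (12.3%) and HNRNPU (10.2%); HNRNPM was just below, at 9.96%. The strand setting of the counting is not given in the sources used here, so reads of genes on opposite strands may have been merged or dropped.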

How the data were processed

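Gene expression was measured in 15 poly(A)-selected, strand-specific HepG2 libraries, sequenced as 150 bp paired-end reads after an RNA integrity cutoff of 7.0, per the labels' protocols. A single table of raw counts for all libraries, by gene symbol, was deposited; the submitters' processing notes name HISAT2, HTSeq, DESeq2 1.46.0, R 4.4.2 and GRCh38. Not given in the sources used here were the annotation release, the strand setting and the filter applied to the rows. Rows at 0 in all libraries numbered 14176.

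The counts were fitted with edgeR 4.0.16 (R 4.3.3, limma 3.58.1; filterByExpr, TMM, robust quasi-likelihood, 1 mean per group over all 15 libraries), and p-values were adjusted by Benjamini-Hochberg over 18380 genes at a threshold of 0.05. CPM values were computed from the same fit's library sizes. Intervals are 95%. The comparisons were the average over 4 transfected groups against untransfected cells, each transfected group against untransfected cells, each cloaked grade against non-cloaked mRNA, and an F test among the transfected groups. Alternatives were DESeq2 1.42.0, RLE size factors, total-count scaling, no filter on low counts, a filter of at least 50 counts in 3 libraries, a replicate block, offsets for length and GC content (loess per library, span 0.3; lengths, GC content and shared windows from GENCODE 29 on GRCh38, found for 99.6% of tested genes) alone and with the block, only the groups compared, and each library left out. The code was tested on simulated data. Replicates differed by more than sampling noise, which cannot show that they came from separate cultures. All 15 were counted as samples, as labelled.

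The genes and lists were chosen with earlier results of these data known. Values of every library are given for the called members of the 8 largest rises (6 were called) and 8 largest falls, the 4 CLK genes, the 2 of smallest F-test p and the 2 of smallest absolute log2 fold change, and for 4 members chosen for their replicate spread; from each other list up to 4 called genes of smallest p are named. A gene of the list of other splicing regulators is counted there but not reported here by name.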

Additional observations from a re-analysis of the deposited data

How the results depend on the processing

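Of 17 calls, SRSF1, SRSF4, SRSF5, HNRNPM, RBM39 and CLK3 (6 members) kept sign and call in all 8 alternatives and with each of 15 libraries left out; their adjusted p over these ranged up to 0.0416 (SRSF5). SYNCRIP and TRA2B changed sign with length and GC offsets (0.044 and 0.021) and with offsets plus replicate block (0.039 and 0.015). Offsets plus replicate block called 4520 of all genes for all transfected against untransfected cells, against 4242 with TMM alone. In that fit the number of members called against untransfected cells was 11, against 17. For non-cloaked mRNA it was 11 with DESeq2 and 9 with total-count scaling, against 5. For weak-cloaked mRNA it was 7 with DESeq2, 7 with offsets plus block, 2 with no low-count filter and 0 in a fit of only the compared groups, against 4. For strong-cloaked mRNA it was 18 with total-count scaling, against 11. Total-count scaling called 3553 of all genes for strong-cloaked and 1104 for non-cloaked mRNA, against 2776 and 1195 with TMM. Over all genes DESeq2 called 2950 for non-cloaked, 2012 for weak-cloaked and 3794 for medium-cloaked mRNA against untransfected cells, where edgeR called 1195, 605 and 2524, and 1237 with the offsets or 1555 with offsets plus block for weak-cloaked mRNA, where a fit of only the compared groups called 4. With no low-count filter 452 of all genes were called for weak-cloaked mRNA. The causes were not tested. With a library left out, the counts ranged from 8 to 20 for all transfected, 0 to 6 for non-cloaked, 0 to 12 for weak-cloaked, 4 to 14 for medium-cloaked and 4 to 9 for strong-cloaked against untransfected cells, and were 0 among transfected groups. Over all genes they ranged from 2148 to 5938, 119 to 1127, 114 to 4007, 785 to 2089 and 728 to 1757 in the same order. Same-numbered replicates deviated together little (correlations from -0.064 to 0.17, median 0.00014). These exceeded 0.1 in 2 of 30 pairs, against 1 of 60 pairs of different number. With 3 libraries per group this cannot exclude a shared culture day, which the labels do not give. With the replicate block 15 of 44 members were called and the calls of SRSF9 and TRA2B were lost. The block called 4304 of all genes for all transfected, 1424 for non-cloaked, 816 for weak-cloaked, 2658 for medium-cloaked and 2958 for strong-cloaked against untransfected cells. Without it the numbers were 4242, 1195, 605, 2524 and 2776. Left-out fits with 2 libraries in a group rest on the spread pooled over all groups.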
